A study of Homo sapiens with 4 samples.

Results

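The FBXO32 window is the stretch of chromosome 8 from 124500000 to 124580000 (hg19), 80 kb that hold the FBXO32 gene and its flanks. Its members are the peaks that overlap it in the 4 deposited lists, 49 of 57601 peaks in all: 24 of 30571 Fra-1 peaks called over input, 6 of 16133 Fra-1 peaks called over IgG, 19 of 10836 DDX5 peaks called over input and 0 of 61 DDX5 peaks called over IgG. The window was selected on the number of peaks called in it, so its counts are a description and carry no test. The libraries came from BT549, an established human breast cancer line negative for oestrogen receptor alpha, grown without treatment. There was 1 chromatin immunoprecipitation (ChIP) library with an antibody to Fra-1, 1 with an antibody to DDX5, 1 with normal rabbit IgG and 1 of input, the sonicated chromatin before any antibody was added. The study set out to find sites specific to Fra-1 or DDX5 and sites common to both. With 1 library per antibody nothing could be tested between antibodies. The 95% exact binomial (Clopper-Pearson) intervals beside the shares allow for counting error alone. They treat peaks as independent, which neighbouring peaks in 1 window may not be.

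FBXO32, also called atrogin-1 or MAFbx, encodes an F-box protein, the subunit that picks the substrates of an SCF ubiquitin ligase, in which SKP1, CUL1 and RBX1 form the common core. It is best known in wasting muscle, where FOXO transcription factors raise its expression together with that of another ubiquitin ligase, TRIM63. In tumour cells it has been studied as a gene that TGF-beta signalling and promoter methylation control. Fra-1, the product of FOSL1, is a Fos-family protein that pairs with a Jun protein to form AP-1, a factor that binds DNA directly and often at enhancers far from promoters. DDX5 is an RNA helicase of the DEAD-box family that also works as a coactivator of transcription factors. In RefSeq's order of genes (GRCh38.p14, used for names and neighbours only), the protein-coding genes next to FBXO32 are NTAQ1, which encodes an N-terminal glutamine amidohydrolase, on one side and KLHL38 and then ANXA13 on the other. Which peaks lie at the FBXO32 promoter, in its exons or in its introns, the DNA sequence under them, and peaks at the partner and neighbour genes were not analysed here.

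Peaks of both antibodies were dense in the window and thinned out beside it. Each peak carries the authors' fold enrichment, which sets the number of ChIP fragments stacked at its summit (the pileup) over the local control level, and the −log10 of a q-value. The 24 Fra-1 peaks over input covered 13.3 kb, 16.6% of the window, with a median of 2402 bp from one summit to the next. The 19 DDX5 peaks over input covered 10.6 kb, 13.3% of it. In the 100 kb on the left there were 2 Fra-1 and 2 DDX5 peaks over input, and in the 100 kb on the right there were 3 and 0. The Fra-1 list over IgG held 0 peaks in the left flank and 3 in the right one, at 3.99-fold to 6.33-fold. The first Fra-1 peak inside the left edge starts at 124502359 (3.11-fold) and the nearest outside it lay at 124456530 to 124456750 (2.63-fold). On the right, the last inside ended at 124576703 (17.1-fold) and the nearest outside lay at 124592074 to 124592332 (4.12-fold).

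**Figure D1:**
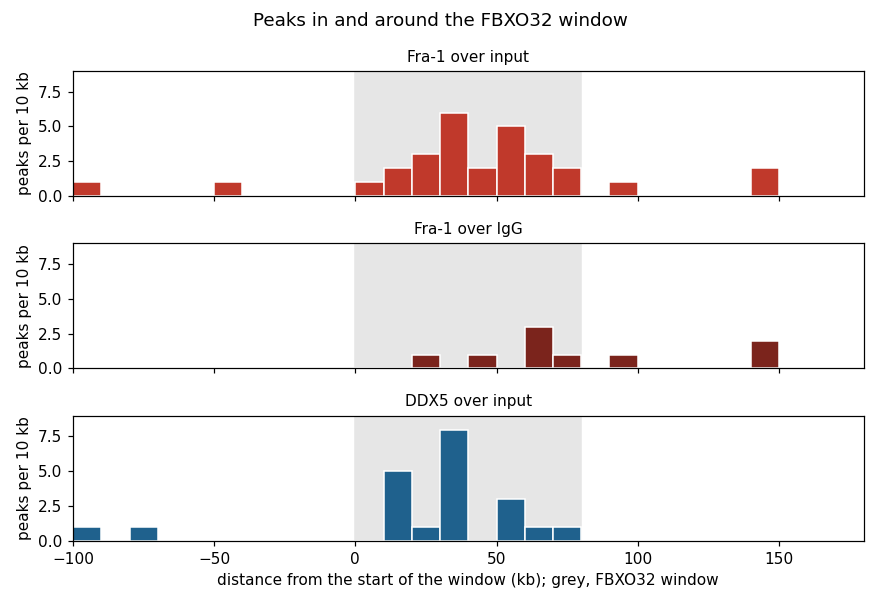
Number of peaks per 10 kb (vertical axis) by the distance of their summits from the start of the window in kb (horizontal axis), in 3 lists, with the window in grey. Both lists over input are fullest between 30 and 40 kb, with 6 Fra-1 and 8 DDX5 peaks, and hold few peaks on either side of the window.

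Few stretches of the genome held as many peaks. When chromosomes 1 to 22 and X were cut into 80-kb tiles in step with the window, 13548 tiles held a Fra-1 peak over input, a median of 2 each, and 3 tiles held more than the window's 24. Of 5621 tiles with a DDX5 peak over input, 10 held more than 19. The tile edges were set by the window and can split clusters elsewhere, so these ranks may favour the window. The window and 3 other tiles reached both counts. On chromosome 8 no other tile reached 24 Fra-1 or 19 DDX5 peaks. The list over IgG gave a lesser rank: 96 tiles held more than the window's 6 Fra-1 peaks, and 199 tiles, the window among them, held at least 6.

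The control DNA was also abundant here. The input level at a peak, computed from the authors' pileup and fold, records copy number and how readily DNA is recovered and aligned. At the 24 Fra-1 peaks it ran from 7.36 to 15.5 fragments with a median of 9.25, against a median of 4.45 over the whole list, and all 24 lay above that median. Fra-1 peaks within 5 Mb on either side of the window had a median input level of 7.08. At the 19 DDX5 peaks, on the depth of their own list, input ran from 6.40 to 10.3 with a median of 7.38, against 3.83 over the list and 6.52 within 5 Mb. The part of input level in the number of peaks was not tested.

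**Figure D2:**
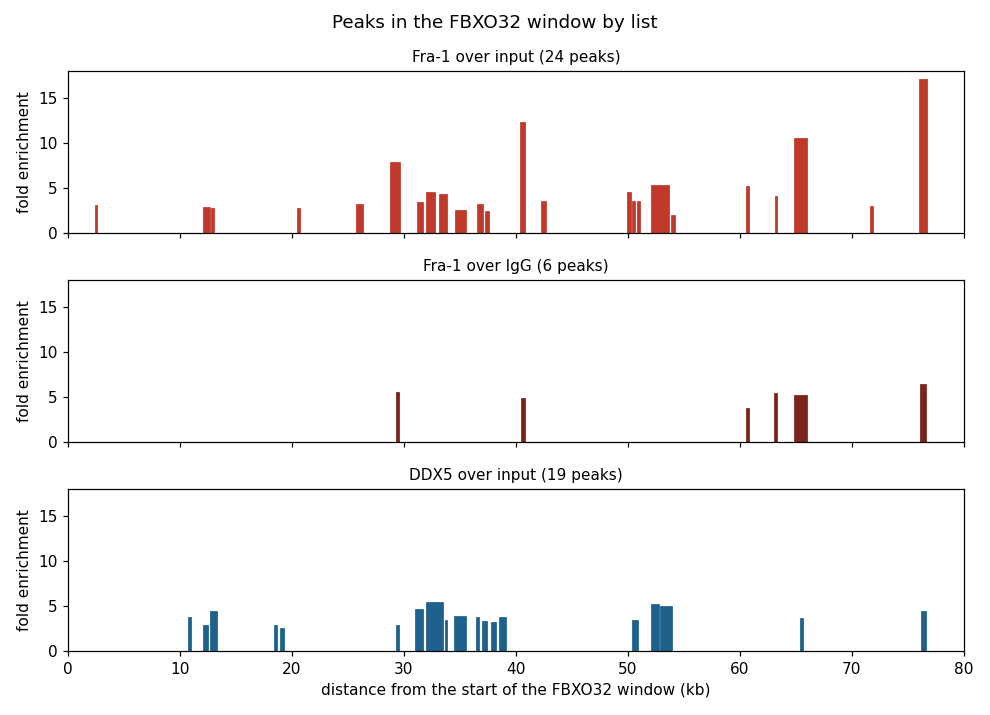
Fold enrichment (vertical axis) of each peak in the window, drawn to its width, by distance from the window's start in kb, in the 3 lists with a peak there. Tall Fra-1 peaks over input (7.90-fold to 17.1-fold) stand at 29.4, 40.6, 65.6 and 76.4 kb and recur over IgG at 4.87-fold to 6.39-fold, while no DDX5 peak passes 5.47-fold.

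The Fra-1 peaks over input in the window were uneven in fold, with a few tall peaks among many low ones. The lower and upper quartiles of their folds were 2.98 and 4.66. Over the whole Fra-1 list they lay further apart, at 3.99 and 9.03. The median fold over input was 3.52, with a range of 2.0 to 17.1, against 5.37 over the whole Fra-1 list, and 20 of the 24 lay below that value. Of the 24, 3 (12.5%, 95% interval 2.66% to 32.4%) reached 8-fold, against 29.5% of the list. The peaks were broad, with a median width of 467 bp against 317 bp. Of the 24, 6 (25%, 9.77% to 46.7%) were called again over IgG by an overlap of at least 1 bp, against 50.5% of the list. Among peaks below 8-fold, 3 of 21 in the window and 30.8% in the list were called again, and at 8-fold or more 3 of 3 and 97.6%. Below 5-fold, where 18 of those 21 lay, 1 of 18 (5.56%, 0.141% to 27.3%) was called again, against 14.0% in the list.

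The 6 Fra-1 sites called over both controls were the following, from left to right. At 124529244 to 124529564 the Fra-1 pileup was 91, the fold over input 7.90 and the fold over IgG 5.55. At 124540424 to 124540797 the pileup was 142, with 12.3-fold over input and 4.87-fold over IgG. The site at 124560538 to 124560824 had a pileup of 54, with 5.15-fold and 3.75-fold. These 3 thus differed more in fold over input than in fold over IgG. At 124563091 to 124563315 the pileup was 55, with 4.12-fold over input and 5.44-fold over IgG, and this alone of the 6 had a higher fold over IgG than over input. The widest of them, 1113 bp at 124564874 to 124565986, had a pileup of 122, with 10.6-fold and 5.18-fold. The tallest, at 124576058 to 124576650, had a pileup of 165, with 17.1-fold over input and 6.39-fold over IgG. Its −log10 q over input was 141, which 2.75% of the Fra-1 list exceeded. Of the 6, 4 lay in the right-hand part of the window, between 124560538 and 124576650, where they were the majority of the 5 Fra-1 peaks over input. The summits in the lists over input and IgG were the same to within 2 bp.

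The IgG library was itself high at most of these 6 sites. The authors scaled the pileups in the lists over IgG to the depth of the IgG library, 0.884 times that of Fra-1 and 0.998 times that of DDX5, so levels of the libraries can be set side by side on that scale. On it the IgG level was 13.7, 25, 12, 8.12, 20 and 22 fragments from left to right, against Fra-1 pileups of 80.5, 125.6, 47.8, 48.6, 107.9 and 145.9. All 6 IgG levels lay above the list's median of 5.20, and 79.5% to 99.8% of the Fra-1 peaks over IgG had a lower one. Input at the same sites was 7.70 to 11.1, so IgG stood at 0.730 to 2.86 times input, with a median of 1.79, against a median of 1.29 over 15759 Fra-1 peaks called with both controls. The 3 sites with the highest IgG level were also the 3 with the highest Fra-1 pileup. None of the 6 folds over IgG reached the list's median of 6.82.

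**Figure D3:**
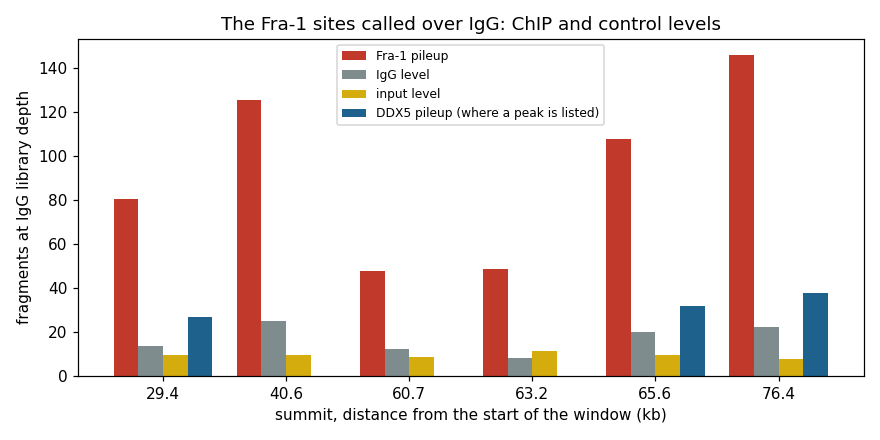
Fragments at the depth of the IgG library (vertical axis, from 0) at the 6 Fra-1 sites called over IgG, named by summit distance from the window's start in kb. The bars give the Fra-1 pileup, the IgG level, the input level and, at the 3 sites where a DDX5 peak is listed, the DDX5 pileup, which lies between IgG and Fra-1; a missing bar means no listed peak.

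The other 18 Fra-1 peaks were called over input alone. The leading one was the broadest in the window, 1626 bp at 124552085 to 124553710, with 56 fragments at its summit (5.34-fold). It was followed by 124549915 to 124550313 (47 fragments, 4.49-fold), 124531968 to 124532777 (37 fragments, 4.50-fold) and 124533089 to 124533809 (37 fragments, 4.35-fold). With the 6 above, these make the 10 Fra-1 peaks with the highest −log10 q. The remaining 14 had pileups of 25 to 43 and folds of 2.0 to 3.58, and the lowest of all, 2.0-fold at 124553829 to 124554176, sat where input was at its highest in the window, 15.5. The IgG level at these 18 peaks was not analysed here, since the lists give it only where a peak was called over IgG.

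DDX5 folds in the window were mostly low beside the whole list. The 19 peaks had folds over input of 2.50 to 5.47 with a median of 3.73. That median was 4.16 over the DDX5 list and 3.59 for DDX5 peaks within 5 Mb of the window. Their pileups, 20 to 43, had a median of 30, against 20 over the list. The median −log10 q was 6.32 in the window and 4.88 over the list, a value that 14 of the 19 reached. None reached 8-fold, against 2.28% of the list. None was called over IgG (0 of 19, which allows up to 17.6% by the exact interval), against 0.508% of the list. DDX5 peaks were also broad, with a median width of 482 bp against 285 bp.

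The 4 DDX5 peaks with the highest folds stood in 2 places. The first was at 124531952 to 124533513, 1562 bp wide (42 fragments, 5.47-fold), beside a peak at 124530947 to 124531673 (35 fragments, 4.69-fold). The other was a pair at 124552085 to 124552767 (43 fragments, 5.25-fold) and 124552862 to 124553927 (40 fragments, 5.0-fold), under the broad Fra-1 peak described above. Next by fold, and nearly equal, were 124512670 to 124513301 (35 fragments, 4.39-fold), near the left end of the window, and 124576140 to 124576661 (38 fragments, 4.38-fold), at the tallest Fra-1 site. The latter exceeded the former by pileup and by −log10 q (10.6 against 9.70). All of these were called over input only.

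DDX5 peaks crowded between the first 2 of the 6 Fra-1 sites. Between 124530947 and 124539138, a stretch of 8.19 kb singled out after its values were seen, lay 8 of the 19 DDX5 peaks and, to 124537597, 6 of the 24 Fra-1 peaks, none of them called over IgG. Beside those already named, the DDX5 peaks were at 124533634 to 124533844 (fold of 3.46), 124534481 to 124535542 (3.86), 124536411 to 124536705 (3.73), 124536925 to 124537406 (3.28), 124537777 to 124538187 (3.24) and 124538441 to 124539138 (3.78). Here the DDX5 pileups were 25.9 to 41.9 fragments at IgG depth and the Fra-1 pileups 23.9 to 32.7. The last 2 of these DDX5 peaks overlapped no Fra-1 peak, and the Fra-1 peaks all overlapped DDX5. These 6 Fra-1 peaks had folds of 2.40 to 4.50, and below 5-fold only 14.0% of the whole Fra-1 list was called again over IgG. Of the list's Fra-1 peaks over input alone, 34.4% overlapped DDX5.

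Fra-1 and DDX5 peaks often overlapped in the window. Of the 24 Fra-1 peaks, 15 (62.5%, 40.6% to 81.2%) met a DDX5 peak over input by at least 1 bp, against 21.8% of the Fra-1 list. Of the 19 DDX5 peaks, 14 (73.7%, 48.8% to 90.9%) met a Fra-1 peak over input, against 61.8% of the DDX5 list. Fra-1 and DDX5 shared 1 input library as control, and the window was chosen for many peaks in both, so these shares are a description. The larger widths and the higher input given above went with them, and their part was not tested. Overlap of DDX5 with Fra-1 peaks over IgG was 3 of 19 (15.8%, 3.38% to 39.6%), against 13.2% of the DDX5 list. With centres within 100 bp in place of an overlap of 1 bp, the share of Fra-1 peaks that met DDX5 was 29.2% (12.6% to 51.1%). The whole Fra-1 list was not analysed by that rule, so 29.2% cannot be set beside 21.8%. Of the 18 overlapping pairs in the window, 6 had summits within 100 bp of each other, and the median distance was 218.5 bp.

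Of the 6 Fra-1 sites called over IgG, 3 had a DDX5 peak, against 8.68% of the Fra-1 list over IgG (9.38% of the Fra-1 peaks over input called again over IgG), and the interval of 11.8% to 88.2% shows how little 6 sites can say. The DDX5 peaks were at 124529294 to 124529545 (2.92-fold over input, summit 36 bp from that of Fra-1), 124565375 to 124565615 (3.71-fold, 108 bp) and 124576140 to 124576661 (4.38-fold, 48 bp). Their pileups at IgG depth were 26.9, 31.9 and 37.9, that is 1.90, 1.57 and 1.69 times the IgG level at the Fra-1 summit after adding 1 fragment to each, and the list over IgG held none of them. Fra-1 exceeded DDX5 there by 2.99, 3.38 and 3.85 times. The site at 124540424, the second tallest Fra-1 peak, and those at 124560538 and 124563091 had no DDX5 peak.

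Of the 18 Fra-1 peaks over input alone, 12 (66.7%, 41.0% to 86.7%) overlapped DDX5, against 34.4% of such peaks in the list. They formed 15 overlapping pairs with 11 DDX5 peaks, since a broad peak of one antibody can meet several of the other. At IgG depth the Fra-1 pileup was 0.659 to 1.24 times that of DDX5, with a median of 0.837, and DDX5 was the higher in 9 of the 15. Over all 5493 such pairs of the lists the median was 0.939. At the 3 pairs over IgG the ratio was 2.99 to 3.85, against a median of 3.84 over 1569 pairs. The distances between summits in the 15 pairs ran from 28 to 1102 bp, and 4 were within 100 bp. The window's pairs thus fell into a tall Fra-1 set and a set where both antibodies gave like depths, with no pair between 1.24 and 2.99. Calling over IgG, which split the pairs, depends itself on the Fra-1 pileup, so this separation is a description.

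**Figure D4:**
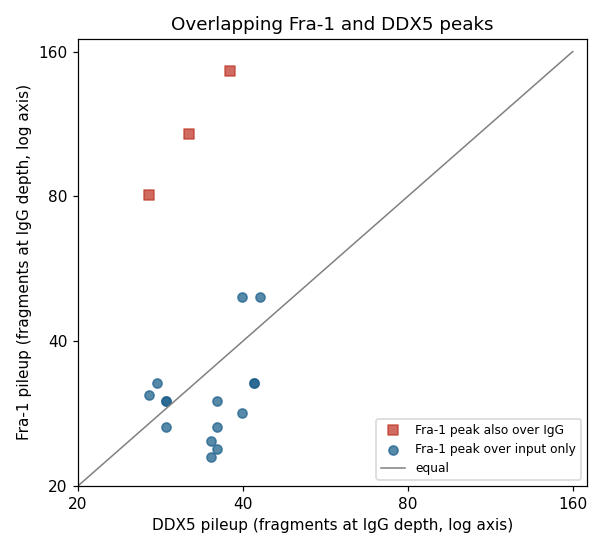
Fra-1 pileup against DDX5 pileup, both in fragments at the depth of the IgG library on log axes, for the 18 overlapping pairs of peaks in the window, with a line of equal values. The 3 pairs whose Fra-1 peak was also called over IgG lie 2.99 to 3.85 times above DDX5, and the other 15 lie on both sides of the line (some points coincide).

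Sites of 1 antibody completed the window. The DDX5 peaks with no Fra-1 peak over input numbered 5 and were low, 2.50-fold to 3.78-fold. Beside those at 124537777 and 124538441, they lay at 124510691 to 124510942 (3.73-fold), 124518385 to 124518607 (2.84-fold) and 124518943 to 124519254 (2.50-fold). Of the 9 Fra-1 peaks with no DDX5 peak, 3 were the IgG-called sites named above, and the other 6, over input only, had folds of 2.78 to 4.49. The left end, up to 124526304, held 5 of the Fra-1 peaks, at 2.78-fold to 3.19-fold, and no Fra-1 peak over IgG. Its remaining DDX5 peak, at 124512070 to 124512507, was 2.92-fold, and the last DDX5 peak of the window not yet named, at 124550323 to 124550901, was 3.44-fold and met 2 Fra-1 peaks.

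Beside other crowded tiles the window had a high input level and a low median fold. Of the tiles defined above, 25 others held at least 15 Fra-1 peaks over input. The share of a tile's Fra-1 peaks called again over IgG was 25% in the window and 0% to 66.7% in the others, with a median of 25%. The share with a DDX5 peak was 62.5% against 5.26% to 94.7%, with a median of 53.3%. Its median fold, 3.52, was lower than in 22 of the 25, and its median input level, 9.25, was higher than in 22 of the 25. The window had 6 Fra-1 peaks over IgG and a highest fold over input of 17.1. The 3 tiles with higher input had no Fra-1 peak over IgG, and their highest folds over input were 2.44 to 8.54. The tile that starts at 155140000 on chromosome 1, with a lower median input level of 5.03, had none either. All the crowded tiles were chosen for their number of peaks, and no test was made between them.

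**Figure D5:**
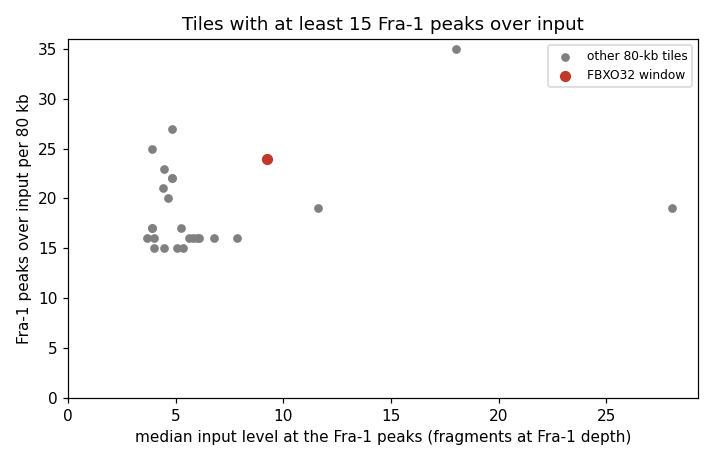
Number of Fra-1 peaks over input per 80 kb (vertical axis) against the median input level at those peaks in fragments at Fra-1 depth (horizontal axis), for the FBXO32 window and the 25 other tiles with at least 15 such peaks. The window, at 24 peaks and an input level of 9.25, has more input than all but 3 of the others.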

How the data were processed

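Each deposited list compares 1 ChIP library with 1 control library. The submitters' processing notes name CASAVA 1.8, Bowtie 0.12.9, HOMER (no version) and the build hg19, with no role for any of them; which program called the peaks is not given in the sources used here. Per the file headers, the deposited signal is a pileup, in whole fragments over input and in multiples of 0.884 (Fra-1) or 0.998 (DDX5) over IgG (all distinct values examined, to within 0.02). Per the file headers, the deposited fold enrichment is a ratio, read as pileup plus 1 over control level plus 1. The control level was computed from it. Recomputing the Poisson tail from it gave the deposited −log10 p-value with a median difference of 6.22e-06 for Fra-1 over input. The second −log10 column, whose header is a spreadsheet error like that of the first, was taken as −log10 q, since it is the lower in 100% of peaks. A low control level is held up by the caller's background. Sequencing depths are unknown.

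Peaks of different lists were matched by an overlap of at least 1 bp, with code tested on simulated data. The named peaks are, by rule, every window peak over IgG, every DDX5 peak and the 10 Fra-1 peaks over input with the highest −log10 q, plus the weakest Fra-1 peak, chosen after its value was seen. The window, the stretches and tiles were chosen with earlier results of these data known. Alternatives were other overlap rules, thresholds, windows and controls. Python 3.11.15 was used, with pandas 2.3.3, numpy 2.4.6, matplotlib 3.10.9 and scipy 1.17.1.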

Additional observations from a re-analysis of the deposited data

How the results depend on the processing

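Among 28 alternatives, 13 gave a share inside the interval printed for it or a count within 1.5 times of that printed. The 28 include alternatives for the median fold and the median input level. These have no interval and are not counts, so none of them could be among the 13. The number of Fra-1 peaks over input, 24, became 3 at 8-fold or more, 9 at or above the list's median −log10 q and 6 in the list over IgG, and that of DDX5 peaks, 19, became 0 at 8-fold and 0 over IgG; a threshold lowers a count by construction. The IgG lists as an alternative for these counts were added after seeing the data. Calling again over IgG, 25% of the Fra-1 peaks in the window, became 66.7% (6 of 9) at or above the median −log10 q. The whole list was not analysed at that threshold, so 66.7% cannot be set beside its 50.5% for all peaks. The share overlapping DDX5, 62.5%, became 29.2% with centres within 100 bp and 0% with the DDX5 list over IgG. The median fold over input, 3.52, became 5.34 above the median −log10 q, 3.56 in a window 20 kb wider or 10 kb narrower on each side, and 5.31 as the fold over IgG of the 6 sites. The median input level, 9.25, became 9.68 above the median −log10 q, 8.83 in the wider window and 9.68 in the narrower one. For moves not set by construction, the cause was not tested. No paired analysis was possible because each antibody has 1 library. The shares rest on 24, 19 or 6 peaks and have wide intervals.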
